A study of Mus musculus with 21 samples.

Results

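The β-adrenergic signalling chain of the heart was followed through 9 genes in 21 libraries: the β1-adrenergic receptor gene Adrb1, the adenylyl cyclase genes Adcy5 and Adcy6, the G protein α-subunit genes Gnas and Gnai2, the receptor kinase gene Grk5, the β-arrestin genes Arrb1 and Arrb2, and Prkaca, which encodes a catalytic subunit of protein kinase A. They were taken by symbol from the deposited expression table, where all 9 members were found among 18762 genes, and all 9 were among the 12433 that reached 1 FPKM in 3 or more libraries. FPKM are fragments scaled by transcript length and by the mapped total, so levels can be set side by side between genes. RNA came from the heart apex of ICR mice, an outbred strain, at postnatal day 7. All animals, controls included, had the tip of the ventricle surgically removed (apical resection) at 1 day of age. Each group held 3 libraries. The control group (titled NS in the labels) had the resection and no drug is named for it, and whether it was injected is not stated. The other 6 groups had the resection and a 7-day course of subcutaneous injections of 1 drug each. Isoproterenol activates β-adrenergic receptors, metoprolol blocks mainly β1 receptors, and propranolol blocks β receptors without that selectivity. Amiodarone is an antiarrhythmic that blocks several ion channels, lidocaine blocks sodium channels, and ivabradine blocks the pacemaker channels of the sinus node. Doses, sex and whether each library is 1 heart are not given in the labels, so p-values measure the spread between libraries, which may be partly technical.

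In heart muscle, noradrenaline and adrenaline bind β1 receptors, which activate Gs. Its α subunit, the product of Gnas, stimulates adenylyl cyclase, and types 5 and 6 are the main cyclases of the ventricle. The cyclic AMP that they make activates protein kinase A, which phosphorylates calcium channels, the ryanodine receptor, phospholamban and sarcomere proteins, so that the beat becomes faster and stronger. Gi, whose α subunits include the product of Gnai2, restrains the cyclases. G protein-coupled receptor kinases such as Grk5 phosphorylate the occupied receptor, and β-arrestins then bind it, uncouple it from Gs and carry it into the cell. Lasting stimulation is known to lower receptor number and to raise receptor kinase levels in the heart, and β-blockers are known to raise receptor number.

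The RefSeq promoter table (assembly GRCm38.p6) held an entry for 5 of the 9 members: Adrb1, Adcy5, Grk5, Gnas and Prkaca. The 250 bases before the start site are printed for Adrb1, Adcy5 and Grk5. Adcy5 was the cyclase gene that changed in every drug group. Grk5 was a kinase gene called between isoproterenol and propranolol. They are shown because cyclic AMP acts on transcription through the cAMP response element, TGACGTCA, and its core CGTCA. Both strands were searched, the core also within the full element, and capitals mark a core on either strand (TGACG is CGTCA on the other strand).
Adrb1: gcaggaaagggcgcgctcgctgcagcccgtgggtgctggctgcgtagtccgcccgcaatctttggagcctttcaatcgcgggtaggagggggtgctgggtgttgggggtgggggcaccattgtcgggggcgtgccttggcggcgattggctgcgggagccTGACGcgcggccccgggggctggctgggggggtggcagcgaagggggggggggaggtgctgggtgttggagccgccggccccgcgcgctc
Adcy5: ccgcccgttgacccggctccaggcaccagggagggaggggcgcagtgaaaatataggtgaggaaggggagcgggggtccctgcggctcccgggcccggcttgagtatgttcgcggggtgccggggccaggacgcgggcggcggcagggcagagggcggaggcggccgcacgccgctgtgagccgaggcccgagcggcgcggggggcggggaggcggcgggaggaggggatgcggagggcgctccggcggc
Grk5: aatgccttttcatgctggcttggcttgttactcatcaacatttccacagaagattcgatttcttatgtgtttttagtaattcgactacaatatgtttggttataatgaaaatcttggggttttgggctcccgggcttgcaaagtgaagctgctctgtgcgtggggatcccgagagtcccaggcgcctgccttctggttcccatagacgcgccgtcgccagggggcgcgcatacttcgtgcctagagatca
These are the windows chr19:56721867-56722116 for Adrb1, chr16:35154614-35154863 for Adcy5 and chr19:60889499-60889748 for Grk5, all on the plus strand. No window of these 5 genes, from 250 bases before to 50 after a start site, held the full element, which was present in 588 of 32851 windows of the table (1.79%). The core stood once in the Adrb1 window, its first base at position -90 from the start site, and was in 20.8% of all windows. It also stood in 3 of the 4 Gnas windows and at 2 places in 1 of the 2 Prkaca windows, and the Adcy5 and Grk5 windows held none. The Gnas windows that start at 174327499 and 174327518 on chromosome 2 overlap and share 1 core. In the 250 bases before the start, the Adcy5 sequence was 78.0% G or C with 32 CG dinucleotides and the Adrb1 sequence was 74.0% with 24, both above the upper quartile of all windows (61.2% and 16). The Grk5 sequence, at 49.6% with 13, lay between the quartiles. These matches describe the letters of the windows only.

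FPKM summed to between 496304 and 552905 per library, and 16348 to 16746 genes were above 0. The controls summed to 542868, 551292 and 537663 FPKM, above every drug library except ivabradine 1 (552905 FPKM). Total read numbers are unknown. Correlations between libraries of a group ran from 0.988 to 0.996. The 10 cardiomyocyte markers, Myh6 and Tnnt2 among them, were all present in every group and summed to between 45382 and 52959 FPKM. Libraries that stood apart were control 3 (the highest Mylpf, a skeletal muscle gene, at 62.7 FPKM), isoproterenol 3 (the highest Myl7, an atrial gene, at 176 FPKM), amiodarone 2 (the highest Sftpc, a lung gene, at 222 FPKM) and propranolol 1 (the highest Alb, a liver gene, at 10.8 FPKM), and counts are given with and without these 4 libraries. The 4 Y-linked genes measured summed to between 0.86 and 0.98 FPKM in all 3 isoproterenol libraries and to between 35.8 and 43.2 FPKM in all 3 propranolol libraries, with both kinds of library among the controls. The amiodarone libraries were all high too, at 38.1 to 41.4 FPKM. In a comparison of isoproterenol with propranolol or with amiodarone, the drug and the Y-linked level therefore cannot be told apart by group. The metoprolol libraries stood at 0.86, 0.91 and 38.0 FPKM and the controls at 0.98, 39.2 and 46.65 FPKM. Metoprolol against propranolol or control was thus unbalanced in this level too.

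Differences were tested on log2(FPKM + 1), a scale that understates the change of genes at low levels, with limma, whose p-values carry a Benjamini-Hochberg correction over the 12433 genes of each comparison. Adjusted p below 0.05 counts as called. The 6 comparisons of a drug with control share the same 3 control libraries. An F test over the 7 groups called 8 of the 9 members, Prkaca being the exception (adjusted p = 0.159), where 39.9% of all genes were called. Adcy5 was higher and Arrb2, Gnas and Gnai2 were lower in each drug group against control. Adrb1, Adcy6, Grk5 and Arrb1 were called with some of the drugs.

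With isoproterenol 6 members were called, Adrb1, Adcy5 and Adcy6 higher and Gnas, Gnai2 and Arrb2 lower, against a background of 34.2% of all genes called (8.38% higher and 25.8% lower). Metoprolol gave calls for the same 6 symbols in the same directions, with 31.4% of all genes called (9.48% higher and 22.0% lower). Propranolol gave 5 calls, Adcy5 higher and Gnas, Gnai2, Grk5 and Arrb2 lower, with 26.8% of all genes called (6.98% higher and 19.8% lower). Amiodarone gave 5 (2 higher, 3 lower) with a background of 29.0% (8.47% higher and 20.6% lower). Lidocaine gave 4 (1 higher, 3 lower) with a background of 37.1% (10.6% higher and 26.6% lower), and ivabradine 5 (1 higher, 4 lower) with a background of 27.0% (7.91% higher and 19.1% lower). With 9 members, 1 call is a large step in the share, and for lidocaine 4 of 9 is close to the background. The median member difference was 0.06 with isoproterenol, 0.00 with metoprolol and -0.12 with propranolol, and the median over all genes was -0.09, -0.08 and -0.08.

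The scale of the libraries bears on these directions. Rescaling by median-of-ratios size factors shifted the median gene by 0.10 upward with isoproterenol and by 0.08 to 0.09 with the other drugs, and turned the balance of calls over all genes. The share of calls that were higher went from 24.5% to 59.1% with isoproterenol, from 30.2% to 63.4% with metoprolol and from 26.1% to 62.0% with propranolol. It went from 29.2% to 64.4% with amiodarone, from 28.4% to 59.7% with lidocaine and from 29.3% to 59.9% with ivabradine. Between drugs it went from 35.9% to 48.3% for isoproterenol against metoprolol and from 3 to 2 of 6 calls for metoprolol against propranolol. With isoproterenol the members' calls went from 3 higher and 3 lower to 5 and 1, with 29.2% of all genes called after rescaling. With propranolol 2 of 9 members were still called, a share near the 23.4% of all genes. No called member changed direction, but the small decreases of Gnas and Gnai2 depend on the scale, as given with those genes. Without the 4 libraries that stood apart, the members called with isoproterenol fell from 6 to 3, namely Adcy5, Adcy6 and Arrb2. All-gene calls fell with them, from 4254 to 1940.

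**Figure D1:**
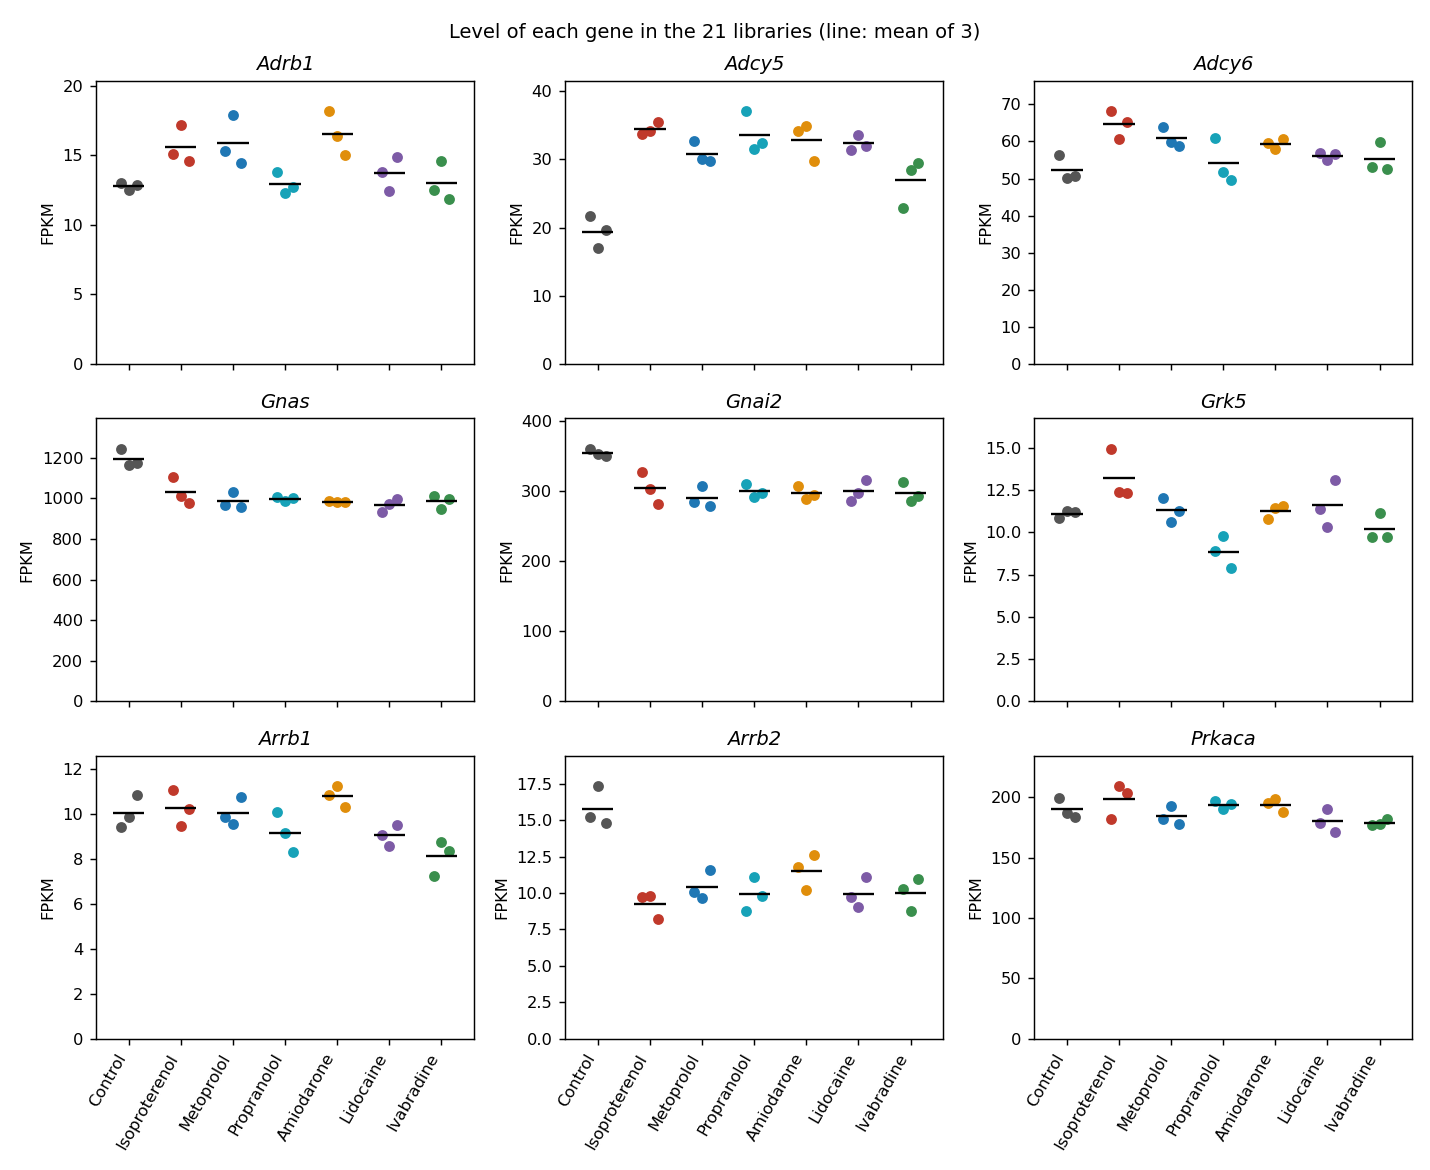
Level of each of the 9 genes in FPKM (y axes from 0, scaled per gene) in the 21 libraries by group (x axis), points being libraries and lines the mean of 3. The 3 controls sit below all drug libraries for Adcy5 and above them for Gnas, Gnai2 and Arrb2, while Prkaca spans 171 to 210 FPKM, with the ivabradine libraries just below the controls and the other drug groups overlapping them.

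The receptor gene Adrb1 (Entrez 11554) was modestly higher with the agonist and with metoprolol and was near control with propranolol. Its level was 13.0, 12.5 and 12.9 FPKM in the 3 controls and 15.1, 17.2 and 14.6 FPKM with isoproterenol. Metoprolol libraries stood at 15.4, 17.9 and 14.4 FPKM, and propranolol libraries at 13.8, 12.3 and 12.7 FPKM. All isoproterenol and metoprolol libraries were thus above the 3 controls, and the propranolol libraries overlapped them. Over all genes, 11.97% lay above every control with isoproterenol and 14.7% with metoprolol. On the log2 scale the difference from control was 0.27 ± 0.09 (SE, limma adjusted p = 0.0291) with isoproterenol and 0.29 ± 0.09 (adjusted p = 0.0227) with metoprolol. With propranolol it was 0.02 ± 0.09 (adjusted p = 0.908), with a 95% interval from -0.17 to 0.21. Amiodarone gave the highest mean, 16.5 ± 1.57 FPKM (SD, n = 3), 0.34 above control (adjusted p = 0.0105), while lidocaine (13.7 FPKM) and ivabradine (13.0 FPKM) overlapped the controls. Each neighbouring pair of groups in the order of levels overlapped. The isoproterenol call was lost at a difference of about the same size without control 2 (0.25, adjusted p = 0.0822), without control 3 (0.27, 0.0618) and without the 4 libraries (0.32, 0.0831). It was lost at a smaller one without isoproterenol 2 (0.20, 0.134) and with the Y-linked level as a covariate (0.160 on the log2 scale, adjusted p = 0.179). The metoprolol call was lost without control 2 (0.27, 0.0695), control 3 (0.29, 0.0501), metoprolol 2 (0.20, 0.110) or the 4 libraries (0.29, 0.0653), and the amiodarone call without amiodarone 1 (0.28, 0.0542) or the 4 libraries (0.35, 0.0717).

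Adrb3, the β3 receptor gene, stayed at or under 0.25 FPKM in all libraries and was not tested.

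Gnas (Entrez 14683) and Gnai2 (Entrez 14678), the stimulatory and an inhibitory α-subunit gene, were the most abundant members and were both lower. Gnas read 1245, 1163 and 1174 FPKM in control, 1104, 1010 and 977 FPKM with isoproterenol, 969, 1031 and 958 FPKM with metoprolol, and 1008, 986 and 1002 FPKM with propranolol. All 18 drug libraries, from 934 to 1104 FPKM, were below the lowest control. From 25.8% to 33.3% of all genes lay below every control in a drug group. Gnai2 read 361, 353 and 350 FPKM in control and 279 to 328 FPKM over the 18 drug libraries, again with no overlap. The fall of Gnas was -0.21 ± 0.05 with isoproterenol (adjusted p = 0.00490), -0.28 with metoprolol (0.00132) and -0.26 with propranolol (0.00226), and that of Gnai2 was -0.22 ± 0.06 (0.00770), -0.29 (0.00202) and -0.24 (0.00665). Relative to the median gene, which was itself lower, these are small. After rescaling, Gnas with isoproterenol was at -0.09 (adjusted p = 0.220) and Gnai2 at -0.10 (0.217), and neither was called. With propranolol the rescaled adjusted p was 0.0608 for Gnas and 0.114 for Gnai2, while with metoprolol both calls held. Gnai2 also lost its rescaled call with amiodarone (0.0529), lidocaine (0.0921) and ivabradine (0.0557). The log2 ratio of Gnas to Gnai2 within a library, which does not depend on scale, was 1.75 ± 0.03 in control and 1.76 ± 0.03 with isoproterenol, 1.76 ± 0.02 with metoprolol and 1.73 ± 0.03 with propranolol (SD, n = 3), and overlapped control for each of these (two-sided exact permutation p = 0.70, 0.70 and 0.60). Lidocaine gave 1.69 ± 0.03, below the 3 controls (p = 0.10 by the exact permutation test, 0.60 after adjustment over the 6 drugs). The Gnas locus gives several transcripts from different start sites, of which 4 windows are in the promoter table, and the gene-level FPKM does not separate them.

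Of the adenylyl cyclase genes, Adcy5 (Entrez 224129) showed the widest change of any member. Control libraries read 21.7, 16.98 and 19.6 FPKM. Isoproterenol libraries read 33.7, 34.2 and 35.5 FPKM, metoprolol libraries 32.7, 30.0 and 29.8 FPKM, and propranolol libraries 37.1, 31.5 and 32.4 FPKM. Agonist and blocker groups alike lay above every control. The remaining groups lay there too, amiodarone at 34.2, 34.9 and 29.7 FPKM, lidocaine at 31.4, 33.7 and 32.0 FPKM and ivabradine at 22.9, 28.5 and 29.4 FPKM. From 10.1% (ivabradine) to 15.2% (lidocaine) of all genes lay above every control in a drug group. Ivabradine stood lowest among the drugs, with its 3 libraries below all metoprolol libraries and above all controls. The log2 difference from control was 0.80 ± 0.09 with isoproterenol (adjusted p = 2.04e-05), 0.65 ± 0.09 with metoprolol (0.000190) and 0.77 ± 0.09 with propranolol (6.18e-05). It was 0.74 with amiodarone (0.000111), 0.71 with lidocaine (3.46e-05) and 0.45 with ivabradine (0.00201). These calls held under each of the 31 alternatives run, leaving out any 1 library among them, with isoproterenol values from 0.72 to 0.92.

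Adcy6 (Entrez 11512), the more abundant of the pair, was called with 2 of the 6 drugs. It read 56.4, 50.2 and 50.6 FPKM in control, 68.1, 60.6 and 65.2 FPKM with isoproterenol, 64.0, 59.7 and 58.8 FPKM with metoprolol, and 60.8, 51.9 and 49.5 FPKM with propranolol. The isoproterenol and metoprolol libraries were above all controls, as for 11.97% and 14.7% of all genes, and the propranolol libraries were spread across them. The difference was 0.30 ± 0.07 with isoproterenol (adjusted p = 0.00379), a call that held under all 31 alternatives, 0.21 ± 0.07 with metoprolol (0.0294) and 0.04 ± 0.07 with propranolol (0.684, 95% interval from -0.11 to 0.19). The metoprolol call was lost without control 2 (0.18, adjusted p = 0.107), control 3 (0.19, 0.0918), metoprolol 1 (0.18, 0.120) or the 4 libraries (0.19, 0.0695), and with the Y-linked covariate (0.19, 0.0552). With amiodarone (0.18, 0.0646), lidocaine (0.10, 0.270) and ivabradine (0.07, 0.457) Adcy6 was not called, although rescaling made a call of amiodarone (0.27, 0.0112) and lidocaine (0.21, 0.0320).

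The log2 ratio of Adcy5 to Adcy6 within a library was -1.39 ± 0.10 in control, -0.89 ± 0.10 with isoproterenol, -0.96 ± 0.01 with metoprolol and -0.67 ± 0.06 with propranolol (SD, n = 3). With the other drugs it was -0.83 ± 0.15 (amiodarone), -0.78 ± 0.07 (lidocaine) and -1.02 ± 0.18 (ivabradine). No drug library overlapped the controls, and each exact permutation test reached p = 0.10, the smallest that 3 libraries against 3 allow (0.10 after adjustment over the 6 drugs). The ratio lay nearer to 0 in the drug libraries, and Adcy6 was the higher of the pair in all 21.

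Of the other cyclases, Adcy9 rose from 4.56 ± 0.29 FPKM in control to 6.44 ± 0.19 with isoproterenol (0.42, adjusted p = 0.000358) and 6.06 ± 0.45 with metoprolol (0.34, 0.00239), and stood at 5.22 ± 0.34 with propranolol (0.16, called after rescaling at 0.25, 0.0150). Adcy4 was 19.3 ± 0.93 FPKM in control and lower with metoprolol (16.0 ± 0.58 FPKM, -0.26, 0.00736, a call lost after rescaling at -0.17, 0.0770) and propranolol (14.8 ± 0.87 FPKM, -0.36, 0.00103). Adcy7 fell with isoproterenol, from 6.50 ± 1.76 to 3.77 ± 0.65 FPKM (-0.63, 0.0161), and Adcy3 was not called in these comparisons. Adcy1, Adcy2, Adcy8 and Adcy10 did not pass the filter on low values.

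**Figure D2:**
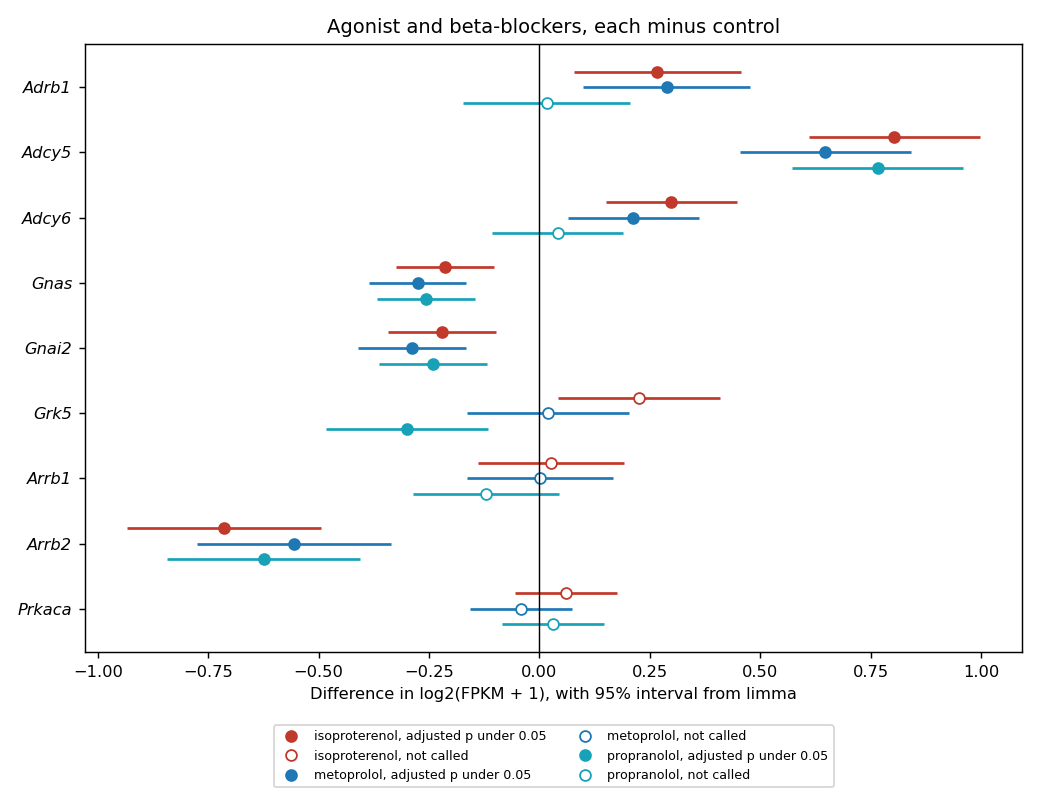
Difference from control in log2(FPKM + 1) (x axis) for each gene (y axis) with isoproterenol, metoprolol and propranolol, as limma estimates with 95% intervals, filled where the adjusted p is below 0.05. All 3 drugs are filled for Adcy5, Gnas, Gnai2 and Arrb2. For Adrb1 and Adcy6 isoproterenol and metoprolol are filled and propranolol lies near 0, and for Grk5 propranolol alone is filled, below 0.

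The receptor kinase gene Grk5 (Entrez 14773) was the member whose agonist and propranolol libraries lay on opposite sides of control. It read 10.9, 11.3 and 11.2 FPKM in control, 14.95, 12.4 and 12.3 FPKM with isoproterenol, 12.02, 10.6 and 11.3 FPKM with metoprolol, and 8.89, 9.81 and 7.89 FPKM with propranolol. All isoproterenol libraries were above and all propranolol libraries below the 3 controls, with metoprolol around them. Over all genes, 11.97% lay above every control with isoproterenol and 31.2% below every control with propranolol. Against control, propranolol was lower by a called -0.30 ± 0.09 (adjusted p = 0.0181), and isoproterenol at 0.23 ± 0.09 missed the threshold (0.0531). The isoproterenol value was called after rescaling (0.33, 0.00478), with the filter at 5 FPKM (0.0477), without isoproterenol 2 (0.0497) and without propranolol 2 or 3, lidocaine 2 or 3 or ivabradine 2 (adjusted p from 0.0394 to 0.0479). The propranolol call was lost after rescaling (-0.20, 0.0754), without control 2 (0.0551), propranolol 3 (0.0868) or the 4 libraries (0.108). Metoprolol (0.02), amiodarone (0.02), lidocaine (0.05) and ivabradine (-0.12) were not called, and in the order of levels each neighbouring pair of groups overlapped.

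Of the 6 receptor kinase genes tested, 2 were called higher with isoproterenol than with propranolol, Grk5 among them (6.50% of all genes). Against metoprolol 1 was called higher with isoproterenol, and it was not Grk5 (2.90% of all genes). Among the other kinases, Adrbk2, which encodes GRK3, had a like order. It stood at 5.73 ± 0.58 FPKM in control, 7.43 ± 0.63 with isoproterenol, 5.05 ± 0.21 with metoprolol and 4.46 ± 0.77 with propranolol (SD, n = 3). The rise with isoproterenol (0.33, adjusted p = 0.0166) and the fall with propranolol (-0.31, 0.0294) were both called, the latter not after rescaling (-0.22, 0.0967). Adrbk1, which encodes GRK2, the major receptor kinase of the heart, was at 29.9 ± 0.45 FPKM in control and 27.8 to 28.1 in these 3 drug groups on average, and was not called. Grk4 fell with all 3, from 10.3 ± 0.96 FPKM to 8.08 ± 0.77, 7.79 ± 0.80 and 7.77 ± 0.22 (-0.31, -0.36 and -0.36), the isoproterenol call being lost after rescaling (-0.20, 0.0839), and Grk6 was not called.

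The 2 β-arrestin genes, whose products end the coupling of the receptor to Gs, gave different counts of calls, 6 of 6 drugs for Arrb2 and 1 of 6 for Arrb1. Arrb2 (Entrez 216869) read 15.2, 17.4 and 14.8 FPKM in control and 9.71, 9.77 and 8.22 FPKM with isoproterenol. Metoprolol libraries read 10.1, 9.64 and 11.6 FPKM and propranolol libraries 8.76, 11.1 and 9.82 FPKM. The 18 drug libraries ran from 8.22 to 12.6 FPKM, with none as high as the lowest control, where 25.8% to 33.3% of all genes lay below every control in a drug group. Neighbouring drug groups in the order of levels overlapped, while the lowest, isoproterenol, lay wholly below the highest, amiodarone (11.8, 10.2 and 12.6 FPKM). The difference from control was -0.71 ± 0.10 with isoproterenol (adjusted p = 0.000102), -0.56 with metoprolol (0.00119) and -0.62 with propranolol (0.000579). With amiodarone it was -0.42 (0.00743), with lidocaine -0.62 (0.000321) and with ivabradine -0.61 (0.000551). These calls also held under each of the 31 alternatives.

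Arrb1 (Entrez 109689) was near its control level with the agonist and both blockers. It read 9.44, 9.90 and 10.8 FPKM in control, 11.1, 9.48 and 10.2 FPKM with isoproterenol, 9.86, 9.56 and 10.8 FPKM with metoprolol, and 10.1, 9.16 and 8.30 FPKM with propranolol, all overlapping. The intervals of the difference were -0.14 to 0.19, -0.16 to 0.17 and -0.29 to 0.04. Arrb1 was called lower with ivabradine (7.25, 8.78 and 8.38 FPKM, -0.28 ± 0.08, adjusted p = 0.0149), a call lost after rescaling (0.0510), in a fit of the 2 groups alone (0.0719), without control 3 (0.0734), without ivabradine 1 (0.0614) and without the 4 libraries (0.0795). The log2 ratio of Arrb1 to Arrb2 was -0.60 ± 0.17 in control, 0.14 ± 0.16 with isoproterenol, -0.04 ± 0.04 with metoprolol and -0.10 ± 0.24 with propranolol (SD, n = 3). It lay above every control with 5 of the drugs (exact permutation p = 0.10, the smallest possible, and 0.12 after adjustment over the 6 drugs) and overlapped control with ivabradine (-0.27 ± 0.24, p = 0.20).

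**Figure D3:**
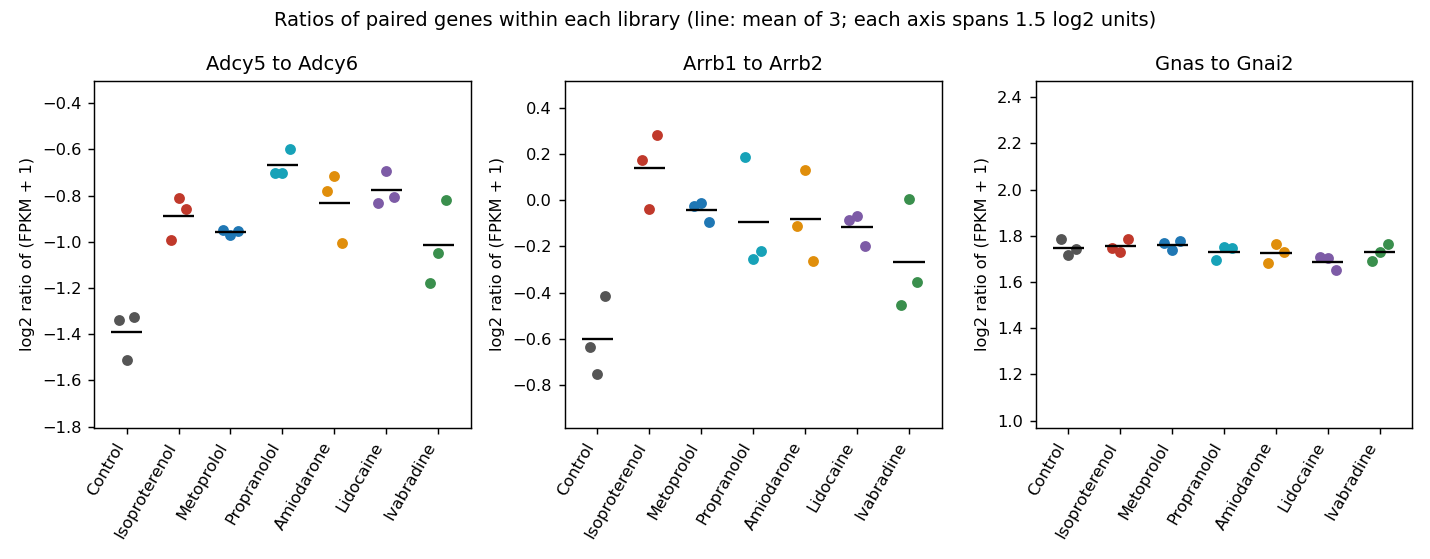
Log2 ratio of (FPKM + 1) within each library (y axes, each spanning 1.5 log2 units) for Adcy5 to Adcy6, Arrb1 to Arrb2 and Gnas to Gnai2 by group (x axis), points being libraries and lines the mean of 3. The mean control ratios, -1.39 for the cyclases and -0.60 for the arrestins, lie below the means of the drug groups, and the G protein ratio stays between 1.69 and 1.76 on average.

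The median sum of macrophage markers was lower in each drug group than in control, as was Arrb2, which is also expressed in leukocytes. The 12 markers, Csf1r and C1qa among them, summed to 299, 654 and 698 FPKM in control, 200, 231 and 117 FPKM with isoproterenol, 251, 188 and 482 FPKM with metoprolol, and 207, 263 and 278 FPKM with propranolol. Of the 11 tested, 9 were lower with isoproterenol, 6 with metoprolol, 7 with propranolol, 3 with amiodarone and 6 each with lidocaine and ivabradine, none was higher, and none was at 0 in a group. Control 1, with a marker sum inside the range of the drug libraries, had 15.2 FPKM of Arrb2, and metoprolol 3, with the highest marker sum among drug libraries, had 11.6 FPKM. Neutrophil markers summed to 21.9 to 142 FPKM in control, 8.27 to 11.2 FPKM with isoproterenol (5 of 6 tested lower, and Ly6g at 0), 18.8 to 28.0 FPKM with metoprolol (2 lower) and 13.9 to 20.1 FPKM with propranolol (4 lower). Fibroblast markers summed to 1729 to 3269 FPKM in control, 1891 to 2027 FPKM with isoproterenol (4 of 8 lower), 1874 to 2667 FPKM with metoprolol (1 lower) and 1834 to 2074 FPKM with propranolol (4 lower). Of 9 endothelial markers, 2 were lower with isoproterenol and 3 with each blocker. Over all genes, 25.8% were lower with isoproterenol, 22.0% with metoprolol and 19.8% with propranolol. It was 20.6% with amiodarone, 26.6% with lidocaine and 19.1% with ivabradine. The endothelial count with isoproterenol and the fibroblast count with metoprolol did not exceed these shares. After rescaling, 9 macrophage markers were lower with isoproterenol, 5 with each blocker, 1 with amiodarone and 4 each with lidocaine and ivabradine. Of the fibroblast markers, 1 was then lower with each of isoproterenol, metoprolol and propranolol, and 1 was higher with isoproterenol. Of all genes, 11.96%, 9.36% and 8.89% were then lower with isoproterenol, metoprolol and propranolol. The endothelial markers lower went to 0, 1 and 2 with these 3 drugs, and the neutrophil counts were the same. The part of these cells in the results for Arrb2 and the other members was not tested. In bulk tissue, fewer cells of a type and less RNA per cell cannot be told apart. Cardiomyocyte markers summed to 46434 to 49825 FPKM in control and 46683 to 49796 FPKM with isoproterenol. Of these 10 genes 5 were higher with isoproterenol, 3 with metoprolol and 4 with propranolol, as was Adcy5, with none lower. Over all genes, 8.38%, 9.48% and 6.98% were higher with these drugs. The part of cardiomyocytes in the Adcy5 result was not tested.

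**Figure D4:**
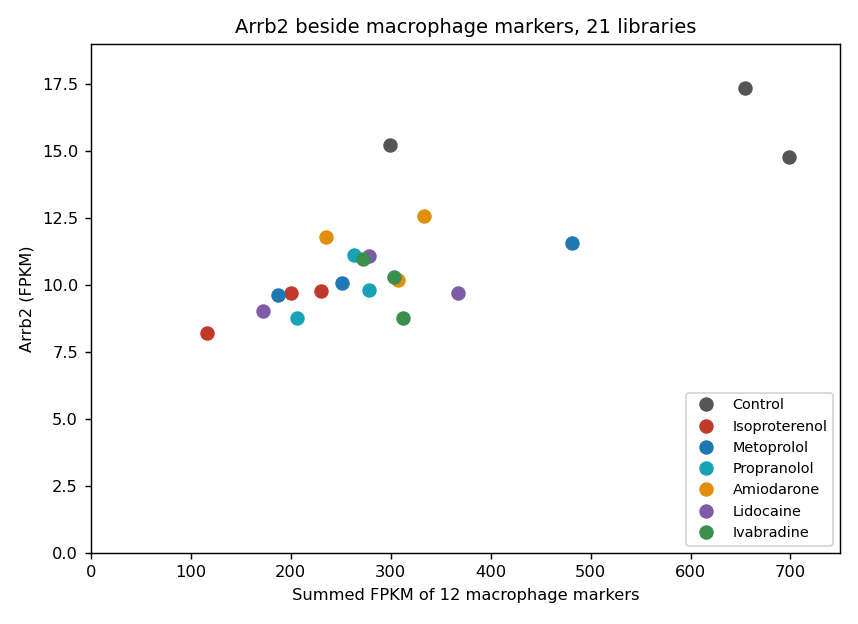
Arrb2 level (y axis, FPKM) against the summed FPKM of 12 macrophage markers (x axis) in each of the 21 libraries, coloured by group. The 3 controls stand at 14.8 FPKM or more, at marker sums from 299 to 698 FPKM, and all drug libraries at 12.6 FPKM or less.

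Prkaca (Entrez 18747), the kinase that carries the cyclic AMP signal onward, was not called in any comparison. It read 199, 187 and 183 FPKM in control, 182, 210 and 204 FPKM with isoproterenol, 182, 193 and 178 FPKM with metoprolol, and 197, 190 and 194 FPKM with propranolol. The intervals of the log2 difference from control were -0.06 to 0.17, -0.16 to 0.07 and -0.08 to 0.15. Among the alternatives, rescaling alone made a call of a drug against control, that of isoproterenol (0.18, adjusted p = 0.0416). Its partner Prkacb was not called, and was after rescaling with isoproterenol (0.21, 0.0319) and metoprolol (0.24, 0.0180). The regulatory subunit gene Prkar2a rose with all 3 drugs, from 12.3 ± 1.00 FPKM in control to 17.5 ± 2.01 with isoproterenol, 19.9 ± 1.28 with metoprolol and 19.3 ± 0.88 with propranolol (0.47, 0.65 and 0.61 on the log2 scale). Prkar1a rose with metoprolol (0.31, adjusted p = 0.00145) and propranolol (0.17, 0.0486) and was at 0.05 with isoproterenol (0.17 after rescaling, 0.0340).

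The agonist was then compared with each blocker directly. Between isoproterenol and metoprolol no member was called by limma (1 at an unadjusted p below 0.05, and 24.4% of all genes), where 8.07% of all genes were (2.90% higher with isoproterenol and 5.17% lower), although Grk5 had an unadjusted interval above 0 (0.21, from 0.02 to 0.39, adjusted p = 0.156). Between isoproterenol and propranolol 2 members were called, both higher with isoproterenol, where 14.6% of all genes were called (6.50% higher and 8.15% lower). Grk5 was higher by 0.53 ± 0.09 (95% interval from 0.34 to 0.71, adjusted p = 0.000732), with every isoproterenol library above every propranolol library, as for 14.6% of all genes. This call held under all 31 alternatives, at 0.43 (0.0222) with the Y-linked level as a covariate and 0.57 (0.0119) without the 4 libraries. The covariate slope came mainly from groups holding both kinds of library. For isoproterenol against propranolol the covariate fit therefore cannot separate the Y-linked level from the drug. Adcy6 was higher by 0.26 ± 0.07 (interval from 0.11 to 0.40, adjusted p = 0.0201), with 1 propranolol library (60.8 FPKM) above the lowest isoproterenol library (60.6 FPKM). The Adcy6 call was lost with the Y-linked covariate (0.20, adjusted p = 0.203), in a fit of the 2 groups alone (0.0745), and without isoproterenol 1 (0.0838), isoproterenol 3 (0.0625), propranolol 2 (0.0902) or propranolol 3 (0.107). Adrb1 was higher with isoproterenol by 0.25 (interval from 0.06 to 0.44, adjusted p = 0.0702) and was not called.

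The 2 β-blockers were not distinguished in any member. Between metoprolol and propranolol 0.0483% of all genes were called, 6 in all (0.0241% in each direction), and none of the 9 by limma (3 at an unadjusted p below 0.05, and 10.5% of all genes), although 2 of the differences were as large as some called against control. Adrb1 was 0.27 higher with metoprolol (interval from 0.08 to 0.46, unadjusted p = 0.00734 by limma, adjusted p = 0.315), and Grk5 0.32 higher (interval from 0.14 to 0.50, unadjusted p = 0.00170, adjusted p = 0.224). The Adrb1 and the Grk5 libraries of the blockers did not overlap, as was the case for 18.4% of all genes. The blockers also differed in the Y-linked level, with a median of 0.91 FPKM for metoprolol and 37.7 FPKM for propranolol. For Adcy5 the interval was -0.31 to 0.07 and for Arrb2 -0.15 to 0.29, and differences within those bounds were not resolved. An F test over the 5 antiarrhythmic groups, metoprolol and propranolol among them, called none of the 9 members, where 1.06% of all genes were called. At an unadjusted p below 0.05 that test held 4 of them, Arrb1 (0.00183), Adrb1 (0.00320), Grk5 (0.00386) and Adcy5 (0.0210), and 12.4% of all genes.

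**Figure D5:**
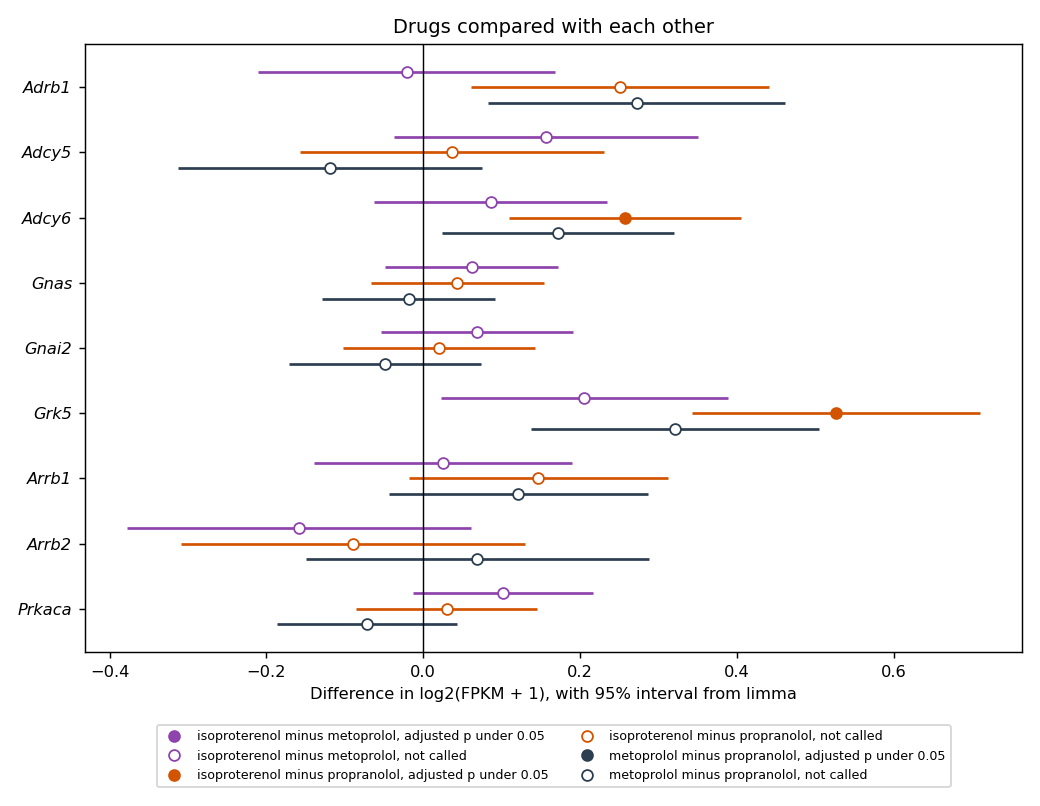
Difference between drugs in log2(FPKM + 1) (x axis) for each gene (y axis), as limma estimates with 95% intervals, filled where the adjusted p is below 0.05. Only Grk5 (0.53) and Adcy6 (0.26), both for isoproterenol minus propranolol, are filled.

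The wider pathway was read from a list of 84 genes, of which 74 were tested. With isoproterenol 16 were higher and 17 lower (median of the list -0.01, against -0.09 over all genes), where 8.38% and 25.8% of all genes were. With metoprolol it was 16 and 18 (-0.04 against -0.08), where 9.48% and 22.0% of all genes were, and with propranolol 13 and 13 (-0.06 against -0.08), where 6.98% and 19.8% were. Between isoproterenol and metoprolol 5 of 74 were called (2 higher, 3 lower), a share near the 8.07% of all genes. Between isoproterenol and propranolol 14 were called (9 higher, 5 lower), where 14.6% of all genes were, and between metoprolol and propranolol 1. Leaving out the 9 members, 65 tested genes gave 13 higher and 14 lower with isoproterenol. After rescaling the isoproterenol split was 24 higher and 5 lower (29.2% of all genes called), that of metoprolol 25 and 9 (25.6%) and that of propranolol 19 and 6 (23.4%). Without the 4 libraries it was 11 and 3 (15.7%), 12 and 15 (22.6%), and 7 and 10 (10.97%). The G protein subunits show how far the scale matters: 9 of 16 were lower with isoproterenol, and after rescaling limma called none of them (4 at an unadjusted p below 0.05), their median going from -0.17 to -0.06. Gng5, a γ-subunit gene, was the example with the lowest F test p after Gnas (-0.22, -0.25 and -0.28 with isoproterenol, metoprolol and propranolol, none called after rescaling, with adjusted p from 0.0836 to 0.303), and Gnai1 was higher with metoprolol (0.21, adjusted p = 0.0394), at -0.04 with isoproterenol and 0.06 with propranolol.

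Among the 6 receptor genes tested, 4 were higher and 1 lower with isoproterenol, where 8.38% and 25.8% of all genes were. With metoprolol it was 3 and 1 (9.48% and 22.0% of all genes), and with propranolol 2 and 0 (6.98% and 19.8%). After rescaling it was 4 and 0, 3 and 0, and 2 and 0 in that order. Of all genes, 17.3%, 16.2% and 14.5% were then higher. Chrm2, the muscarinic receptor gene through which the vagus slows the heart, rose from 8.20 ± 0.98 FPKM to 12.6 ± 1.54 with isoproterenol, 12.9 ± 1.46 with metoprolol and 11.1 ± 0.50 with propranolol (0.56, 0.59 and 0.40). Adra1b, an α1 receptor gene, rose with all 3 as well (0.39, 0.30 and 0.38). Adra1d, another α1 receptor gene, was 2.40 ± 0.38 FPKM in control and 3.50 ± 0.29 with isoproterenol (0.41, adjusted p = 0.00852), 2.44 ± 0.05 with metoprolol and 2.18 ± 0.43 with propranolol, and isoproterenol was above metoprolol (0.39, 0.0371) and propranolol (0.51, 0.00482).

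Of the 74 tested genes, Rrad had the widest difference between isoproterenol and propranolol. Rrad, which encodes a small GTPase that restrains the L-type calcium channel until protein kinase A releases it, was at 169 ± 14.2 FPKM in control, 151 ± 10.2 with isoproterenol, 137 ± 32.1 with metoprolol and 80.4 ± 9.63 with propranolol (SD, n = 3). It was lower with propranolol against control (-1.06, adjusted p = 5.40e-05), and was the single pathway gene called between the blockers (0.75 higher with metoprolol, 0.0319). Without the 4 libraries that stood apart the call between the blockers was lost, as 0 of all genes were called there. Isoproterenol was above propranolol by 0.91 (0.000230). Cacna1c, the pore subunit of that channel, was higher with isoproterenol than with control (0.30, 0.0258) and propranolol (0.44, 0.00527). Ryr2, the calcium release channel, rose with all 3 drugs (0.65, 0.72 and 0.38), as did Mybpc3, a sarcomere protein gene (0.35, 0.29 and 0.39), and both are expressed in cardiomyocytes. Popdc3, a Popeye-domain gene whose family binds cyclic AMP, was higher with metoprolol (0.27) and propranolol (0.33) and at -0.08 with isoproterenol, which was below propranolol by -0.40 (0.000867). Akap6, an anchor that holds protein kinase A at the nuclear envelope and near ryanodine receptors, rose with all 3 drugs (0.35, 0.62 and 0.60), and Rapgef3, which encodes the cyclic AMP sensor Epac1, fell with all 3 (-0.31, -0.31 and -0.27), the propranolol call being lost after rescaling (-0.17, 0.0814). Among the α-arrestins, Arrdc1 fell with all 3 (-0.42, -0.55 and -0.62), and Txnip fell with metoprolol (-0.40, 0.0248) and propranolol (-0.41, 0.0259) while at 0.00 with isoproterenol, and neither call held after rescaling (0.0739 and 0.0857).

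The genes whose 7 group means lay nearest to those of a member were sought for the 3 members of widest range, by the root mean square difference of centred log2 means. For Adcy5 these were Chmp4c (0.06), Rap1gap2 (0.07) and Acacb (0.08). Acacb, which encodes the muscle isoform of acetyl-CoA carboxylase, went from 31.9 FPKM in control to 55.0 with isoproterenol, 48.9 with metoprolol, 47.3 with propranolol and 45.5 with ivabradine. For Arrb2 they were Unc93b1 (0.03), Sema4a (0.04) and Fam105a (0.04). Unc93b1, which traffics Toll-like receptors in immune cells, went from 23.7 FPKM in control to between 14.6 and 17.3 in the drug groups. For Grk5 they were Prune2 (0.04), Best3 (0.04) and Thnsl2 (0.05), all at low levels. Thnsl2 was at 3.50 FPKM in control, 4.27 with isoproterenol, 3.46 with metoprolol and 2.77 with propranolol. These are likenesses over 7 group means, chosen from all tested genes for that likeness.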

How the data were processed

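The authors deposited 1 table of FPKM values per gene and library. Per the submitters' processing notes, reads were handled with HISAT and with Bowtie2 2.2.5 on build mm9; how genes were counted, with which annotation and with what filters is not given in the sources used here. Per the labels' protocols, libraries were sequenced on a BGISEQ-500, after oligo dT selection or rRNA depletion without a statement of which. All value columns matched a library of the labels. Whether reads were counted by strand is not given, so reads of overlapping antisense genes cannot be told apart.

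The scale was log2(FPKM + 1). Genes reaching 1 FPKM in 3 or more libraries were fitted with limma 3.58.1 in R 4.3.3, with 1 mean per group over all 21 libraries and a mean-variance trend, and p-values were Benjamini-Hochberg adjusted within each comparison. The code was tested on simulated data. Ratios within libraries were compared by exact permutation tests. Replicate numbers in the titles did not pair libraries: the residual correlations of 63 same-numbered pairs ran from -0.54 to 0.29 (median -0.03), and 3 of 21 libraries correlated best with their own number.

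The 9 members, the 84-gene pathway list and the marker lists were chosen with earlier results of these data known. All members are named, with the other isoforms of their families and, per role of the pathway list, genes passing the F test or a comparison among control, isoproterenol, metoprolol and propranolol (at most 6 by F test p); the text gives part of these, and some are not reported here. Alternatives were a pseudocount of 0.1 FPKM, dropping the filter or raising it to 5 FPKM, rescaling by median-of-ratios size factors, the compared groups alone, no trend, robust moderation, a replicate block, a Y-linked covariate, leaving out the 4 libraries that stood apart, and leaving out each library. Rescaling and leaving out the 4 libraries were applied to the pathway list after seeing the data. Promoter windows came from RefSeq (GRCm38.p6), another build than mm9, and were matched by symbol.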

Additional observations from a re-analysis of the deposited data

How the results depend on the processing

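The counts of members called stayed within 1.5 times of those reported in 330 of 340 recomputations over 11 tests and 31 alternatives. These include isoproterenol against metoprolol, metoprolol against propranolol and the F test over 5 groups, where no member was called in any setting. The rule compares counts, so a kept count can hold other genes. The ratio differences kept their sign in 138 of 144. Of 33 called member differences between 2 groups, 18 stayed called in every alternative, among them Adcy5 and Arrb2 with all 6 drugs, and 44 of 48 uncalled ones were called in none. Without the 4 libraries, 3 members were called with isoproterenol instead of 6. After rescaling 2 were called with propranolol instead of 5, and 3 with ivabradine instead of 5, as also in a fit of the compared groups alone. Between isoproterenol and propranolol, 1 was called in place of 2 in the compared groups alone and with the Y-linked covariate, and leaving out 1 library gave 1 to 2 (1 without isoproterenol 1, isoproterenol 3, propranolol 2 or propranolol 3). The Gnas to Gnai2 difference, near 0 throughout, changed sign without the 4 libraries for isoproterenol (-0.0117) and on leaving out 1 library, with ranges from -0.00937 to 0.0248 for isoproterenol, -0.00257 to 0.0310 for metoprolol and -0.0324 to 0.00183 for propranolol. The cause was not tested in these cases. The replicate block by title number changed no member's call, with 6 members called for isoproterenol, 6 for metoprolol and 5 for propranolol, and since the numbers do not pair libraries it is a hint at most.

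Over all genes, leaving out the 4 libraries cut the calls to 1940 with isoproterenol, 1355 with propranolol (from 3332), 1117 with amiodarone (from 3608), 2229 with ivabradine (from 3358), 307 for isoproterenol against metoprolol (from 1003), 881 for isoproterenol against propranolol (from 1821), 2152 in the F test over 7 groups (from 4962) and 11 over 5 groups (from 132). The Y-linked covariate left 691 for isoproterenol against propranolol, and the compared groups alone left 1616 for ivabradine and 528 for isoproterenol against metoprolol. No filter left 76 in the F test over 5 groups. Leaving out 1 library moved the count by over 1.5 times without control 2 (metoprolol 2410 from 3910, propranolol 2000, amiodarone 2107), isoproterenol 3 (isoproterenol 2778), metoprolol 1 (metoprolol 2388), propranolol 2 (propranolol 2167), amiodarone 2 (amiodarone 2038) and ivabradine 3 (ivabradine 2217). Counts between drugs and in the F test over 5 groups moved likewise, the 6 calls between metoprolol and propranolol ranging from 0 to 10. Read depth is unknown, so counting error could not be given.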
